A study of Mus musculus with 2 samples.

Results

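The Trim family, the tripartite-motif genes, was followed by its symbols: every gene whose symbol begins with Trim and a digit was taken, which gave 69 of the 55401 genes counted. Of these, 40 had at least 50 UMIs (molecules tagged by a unique barcode) over the gated cells, 10 had between 1 and 5 UMIs, and 19 had none. The cells were live, CD45-positive white blood cells from digested mouse lungs, 7 weeks after a first treatment with urethane, a carcinogen that induces lung tumours. By the labels there was 1 Siah1a/2 KO sample and 1 WT sample, both treated with urethane. Siah1a and Siah2 encode RING ubiquitin ligases of another family. The sources used here do not give the ages, the number of animals per sample or how the knockout was made. The cell barcodes end in 1 or 2 and no label ties an ending to a genotype, so the cells are given as library 2 and library 1 and no genotype was assigned or inferred. Each value therefore comes from 1 library, and there is no replicate check of any difference. Intervals are exact, at 95%, and reflect the error of counting UMIs and nothing else.

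TRIM proteins carry a RING finger, B-box zinc fingers and a coiled coil, followed by a variable end such as a PRYSPRY domain, NHL repeats or a bromodomain. Most act as ubiquitin ligases, in which the RING finger recruits the ubiquitin-loaded enzyme and the variable end binds the target. Many are induced by interferon and restrict viruses or tune the sensing of viral nucleic acid, while others repress chromatin, hold the cytoskeleton or control protein quality.

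Library 2 held 6479 barcodes and 59459790 UMIs, and library 1 held 8522 barcodes and 86227008 UMIs, with medians of 7546 and 8303 UMIs per barcode. Marker gates placed 4768 cells of library 2 and 6034 cells of library 1 in 15 classes, of which 13 had at least 50 cells in each library and were compared. Among genes that the gates did not use, Pax5 and Eomes are given as examples, and RNA of other cell types in the neutrophil sums is described below. Pax5 stood at 278 CPM (UMIs scaled to a total of 1000000 UMIs in that class and library) in library 2 and 252 CPM in library 1 in B cells, and Eomes at 175 and 186 CPM in NK cells. Siah1a had 12.6 CPM (11.6 to 13.7) in library 2 and 8.48 CPM (7.76 to 9.25) in library 1 over gated cells, and Siah2 27.2 CPM (25.6 to 28.8) and 18.4 CPM (17.4 to 19.5). Over all kept cells, markers of other cell types were at low levels: 3 endothelial markers summed to 1703 UMIs (28.9 CPM) in library 2 and 2146 UMIs (25.01 CPM) in library 1, the 3 epithelial markers to 430 and 532 UMIs, and the 2 haemoglobin genes to 63 and 1181 UMIs. Of 6 alveolar macrophage markers, 5 were at 0 in library 2 and 4 in library 1. The libraries shared 11 barcode sequences.

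Of the family, 10 genes lie side by side on chromosome 7, between 104218793 and 104507849 (GENCODE M21 positions on GRCm38), a stretch of 289 kb. They are mouse relatives of primate TRIM5, the restriction factor that binds the capsid of retroviruses. Trim6, Trim34a and Trim34b lie on the plus strand and Trim5, Trim12a, Trim12c, Trim30a, Trim30b, Trim30c and Trim30d on the minus strand. The pseudogene Trim30e-ps1 lies past this stretch, between 104532959 and 104535361 on the minus strand. It had no UMI and is not counted among these copies. All 5 members called higher in neutrophils, described below, are such copies: Trim12a, Trim30a, Trim30b, Trim30c and Trim30d. The bases before the start are shown for Trim30a, Trim30c and Trim30d of these. They are also shown for Trim5 and Trim12c, which were not called higher in neutrophils. RefSeq promoter windows (GRCm38.p6) could be matched for 53 members. Each line gives the 150 bases before the start of a minus-strand gene, 5′ to 3′ in the direction of that gene. Capitals mark matches, on either strand, to the letters GAAANNGAAA, a minimal form of the interferon-stimulated response element, or GGAANNGAAA, a form in which an ETS core replaces the first repeat. The windows are chr7:104465194-104465343 for Trim30a, chr7:104507850-104507999 for Trim30d, chr7:104353350-104353499 for Trim12c, chr7:104288107-104288256 for Trim5 and chr7:104400779-104400928 for Trim30c. The RefSeq start of Trim30b lies 11238 bases inside its GENCODE gene, so its window is not shown, and 26 of the 31 detected members with a window have a RefSeq start within 1000 bases of the GENCODE start.
Trim30a: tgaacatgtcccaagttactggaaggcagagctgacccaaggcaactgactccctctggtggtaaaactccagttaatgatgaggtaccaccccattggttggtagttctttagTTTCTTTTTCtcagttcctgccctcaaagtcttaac
Trim30d: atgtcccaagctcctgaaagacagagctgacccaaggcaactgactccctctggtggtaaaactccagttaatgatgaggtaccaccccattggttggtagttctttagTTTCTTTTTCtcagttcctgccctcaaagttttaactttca
Trim12c: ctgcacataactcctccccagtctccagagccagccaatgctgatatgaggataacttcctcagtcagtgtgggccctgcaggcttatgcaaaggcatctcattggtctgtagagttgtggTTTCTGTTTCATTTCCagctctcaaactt
Trim5: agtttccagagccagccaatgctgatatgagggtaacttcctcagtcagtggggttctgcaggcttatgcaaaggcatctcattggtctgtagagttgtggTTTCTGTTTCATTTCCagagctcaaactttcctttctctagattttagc
Trim30c: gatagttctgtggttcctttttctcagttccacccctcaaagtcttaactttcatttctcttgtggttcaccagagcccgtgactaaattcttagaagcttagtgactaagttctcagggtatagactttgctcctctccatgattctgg
Trim30a and Trim30d shared an unbroken run of 118 bases that holds the match, and the match begins 36 bases before the start of Trim30a and 41 before that of Trim30d. Trim5 and Trim12c shared a run of 63 bases, in which a match to GAAANNGAAA overlaps a match to GGAANNGAAA. Those matches begin 49 and 43 bases before the start of Trim5, and 29 and 23 bases before that of Trim12c. The window of Trim30c held neither set of letters, and its longest run in common with that of Trim30a was 16 bases. That run ends with the last base of the Trim30a window, so its length depends on where the window ends. Before the run these windows also read alike, with differing bases, also within the Trim30a match. A further RefSeq start of Trim30a, with the window chr7:104446126-104446275, held no match either. The window of Trim12a, chr7:104315496-104315645, is not shown and held no match. Its last 91 bases are the first bases of the Trim5 window and end before the Trim5 match. Over the 250 bases before the start, GAAANNGAAA was found for 5 of the 31 detected members with a window, the fifth being Trim26, and GGAANNGAAA for 3, the third being Trim44, whose RefSeq start lies 6928 bases inside its GENCODE gene. Of all genes in the RefSeq set, 3.46% had a window with GAAANNGAAA and 2.68% one with GGAANNGAAA. A match describes letters in a window and is neither a bound site nor a cause.

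Over all gated cells the 69 genes together took 1214 CPM (1204 to 1225) in library 2 and 1206 CPM (1198 to 1215) in library 1. The summed level was highest in neutrophils, with 1963 CPM in library 2 and 2356 CPM in library 1, and lowest in mast cells, with 621 and 665 CPM. B cells had 1626 and 1468 CPM, classical monocytes 1326 and 1379 CPM, CD8 T cells 1296 and 1193 CPM, NK cells 1102 and 1139 CPM, and macrophages 1010 and 1080 CPM. Of the 124925 UMIs that the family had in gated cells, Trim30a held 20.3%, Trim12a 8.67%, Trim12c 7.82%, Trim26 6.32% and Trim30d 5.65%. These are shares of captured 3′ ends and not levels per length. Between the libraries, the order of the 13 classes for a given member had a median Spearman rho of 0.72 over the 40 members, with a range of -0.017 to 0.97, and 17 members had their highest class in common.

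**Figure D1:**
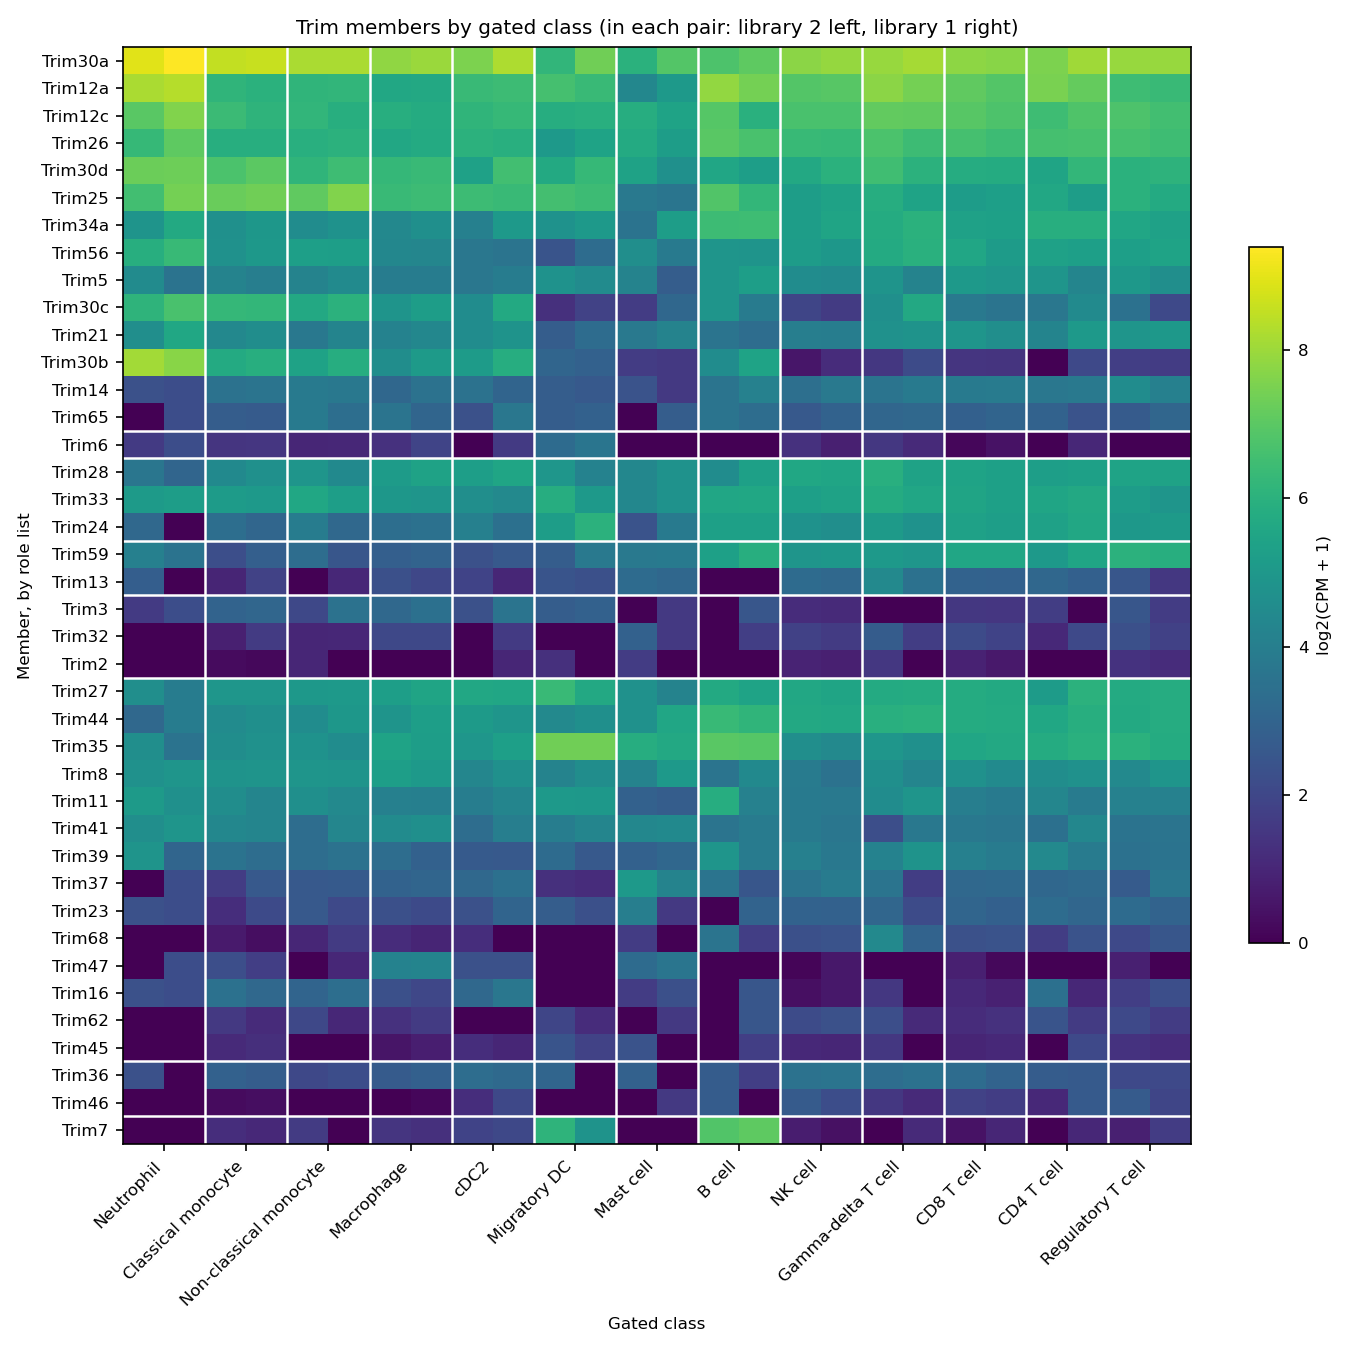
Levels of the 40 detected Trim genes (rows, grouped by role) in 13 gated classes (columns). Each class has library 2 on the left and library 1 on the right, and the colour is log2(CPM + 1). Trim30a is present in every class, whereas Trim7 and Trim47 are high in a few classes and low in most others.

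A member was called higher in a class where its CPM was at least 2 times that of all other gated cells in both libraries and both intervals were clear of 0. By this rule 16 of 40 members were higher in some class, beside 39.8% of the 14261 genes compared, and 20 of 40 were at most 0.5 times as high in some class, beside 53.8% of genes. By the ratios alone 21 of 40 were higher in some class, beside 51.5% of genes. These shares lie near the background, so the counts are no result about the family. The members that met the rule and the cells in which they did are described in turn.

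Neutrophils held the highest levels of Trim30a, Trim30b, Trim30d and Trim12a among the 13 classes, in both libraries. Trim56 and Trim41, which lie on other chromosomes, were also highest there in both libraries but were not called higher. Trim41 had 23.81 CPM in library 2 and 28.95 CPM in library 1. Neutrophils had 5 members called higher, beside 6.28% of all genes, and all 5 are chromosome 7 copies. In neutrophils Trim30b, a PRYSPRY copy in the same stretch as Trim30a, stood at 272 CPM (228 to 321) in library 2. It stood at 209.9 CPM (159 to 271) there in library 1. Other gated cells had 11.8 and 16.5 CPM of Trim30b. The log2 ratios were 4.53 and 3.68. Trim30a, which is induced by interferon and dampens Toll-like receptor signalling in mouse macrophages, had 494 CPM (435 to 559) and 666 CPM (573 to 769) in neutrophils, against 233 and 249.2 CPM in other gated cells. Trim30c had 67.5 and 101 CPM in neutrophils, against 20.4 and 22.7 CPM, Trim30d had 153 and 159 CPM, against 62.1 and 71.7 CPM, and Trim12a had 290 and 318 CPM, against 111 and 98.3 CPM in other gated cells. The neutrophils were 138 cells of library 2 and 80 of library 1, with medians of 2696.5 and 2540.5 UMIs. Their sums also held the mast cell protease Tpsb2 at 466 CPM in library 2 and 3.62 CPM in library 1, and Apoe, a macrophage gene, at 1199 and 326 CPM. The part of such RNA in these results was not tested.

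Classical monocytes came next after the neutrophils for Trim30b. Classical monocytes had 5 members called higher, beside 9.75% of all genes. Trim30b had 52.8 CPM in library 2 and 58.0 CPM in library 1 in classical monocytes, against 9.74 and 11.9 CPM in other gated cells, and Trim30c had 74.9 and 74.0 CPM, against 13.7 and 16.2 CPM. Non-classical monocytes had 4 members called higher, beside 7.64% of genes, with Trim30b at 41.3 and 56.3 CPM and Trim30c at 49.5 and 64.2 CPM. In cDC2, the dendritic cells gated by Cd209a, 2 members were called higher, beside 3.44% of genes, and Trim30b had 34.7 and 56.9 CPM. Lymphocyte classes differed among themselves. B cells had 22.7 and 41.9 CPM of Trim30b, on 4 and 18 UMIs, and macrophages 23.5 and 33.2 CPM. Gamma-delta T cells had 24.2 and 49.3 CPM of Trim30c, and migratory dendritic cells 1.46 and 2.59 CPM, on 1 and 2 UMIs. NK cells had 0.499 and 1.26 CPM of Trim30b, against 19.2 and 21.4 CPM in other gated cells, and 2.89 and 2.10 CPM of Trim30c, against 26.4 and 28.2 CPM. CD8 T cells had 1.70 and 1.68 CPM of Trim30b, against 23.0 and 26.4 CPM. In all, 6 members were at most 0.5 times as high in NK cells, beside 15.1% of genes, and 7 in CD8 T cells, beside 15.3% of genes.

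The shares of cells with a UMI had neutrophils, classical monocytes and NK cells in the same order for Trim30b. In neutrophils 55.1% of cells in library 2 (46.4 to 63.5) and 45% in library 1 (33.9 to 56.5) held a Trim30b UMI, and in classical monocytes 31.1% and 34.1%. In NK cells, whose median depths of 8761 and 9983 UMIs were above those of the neutrophils, 0.498% and 0.922% of cells did. Cells were then thinned to 3000 UMIs, which left out 93 of 138 neutrophils in library 2 and 53 of 80 in library 1, and 28 and 22 NK cells. The neutrophil shares, over the 45 and 27 deepest cells, were 55.6% and 37.0%, the classical monocyte shares 13.7% and 16%, and the NK cell shares 0.205% and 0.188%. Trim30b shared none of the 50-base words in its last 400 bases with another gene, and Trim30c shared 0.57% of them. Other copies are less distinct. Trim34b shared 61.1% of these words, Trim5 39.3%, Trim30a 23.4%, Trim12c 22.2%, Trim30d 19.2% and Trim34a 16.4%, so UMIs may have been split between these genes and their near-identical copies. The sources used here do not give how such reads were counted.

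**Figure D2:**
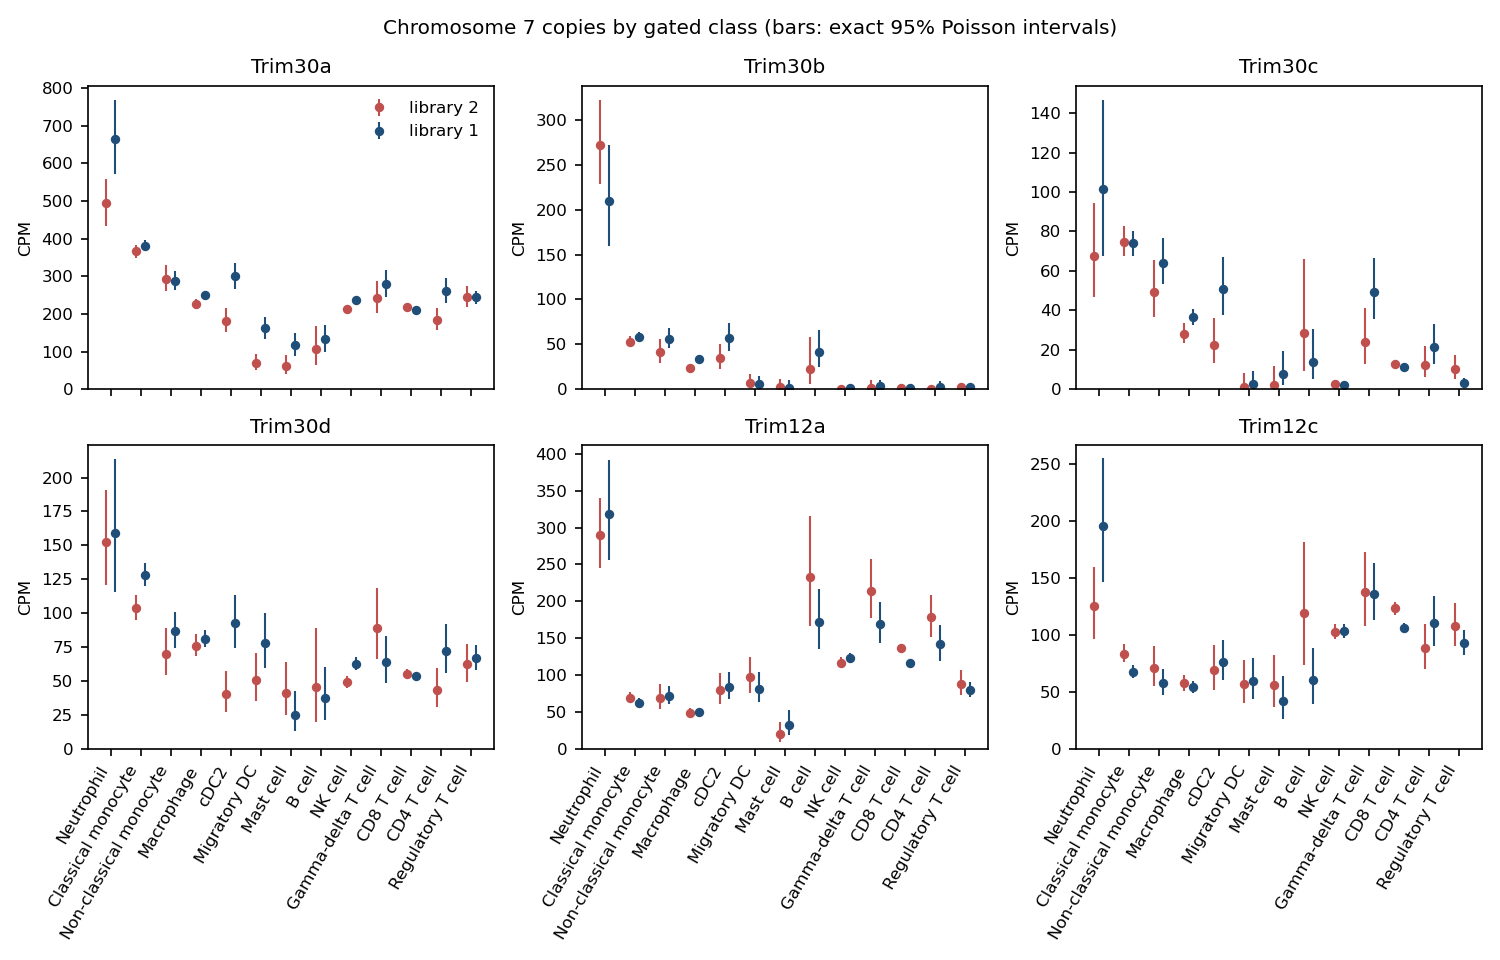
CPM of Trim30a, Trim30b, Trim30c, Trim30d, Trim12a and Trim12c in 13 gated classes, library 2 left of library 1 in each pair, with exact 95% Poisson intervals as bars. Trim30b reaches 272 and 209.9 CPM in neutrophils and is 0.499 and 1.26 CPM in NK cells, while Trim30a has at least 62.7 CPM in every class shown.

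The other antiviral members were spread over more classes. Trim25, a ligase that modifies the viral RNA sensor RIG-I, had 149 CPM in library 2 and 164 CPM in library 1 in classical monocytes, against 49.2 and 55.1 CPM in other gated cells, and 136 and 196 CPM in non-classical monocytes, against 59.4 and 63.9 CPM. It was lower in CD8 T cells, with 35.8 and 38.3 CPM, against 76.9 and 85.2 CPM in other gated cells, and it was lowest in mast cells, with 13 and 11.5 CPM. Trim12a, whose neutrophil level was high, was lower in macrophages, with 48.5 and 49.4 CPM, against 120.3 and 107 CPM in other gated cells. Trim34a had 85.0 and 88.6 CPM in B cells, against 34.2 and 37.1 CPM in other gated cells. Trim21, a cytosolic receptor for antibody, had 28.5 and 23.6 CPM in CD8 T cells and 5.83 and 9.08 CPM in migratory dendritic cells. Trim56, an antiviral ligase, was highest in neutrophils, with 57.55 and 79.61 CPM. It had 46.2 and 34.9 CPM in CD8 T cells and 4.37 and 9.08 CPM in migratory dendritic cells, there on 3 and 7 UMIs. Trim26 had 97.9 and 85.2 CPM in CD8 T cells and 48.3 and 52.0 CPM in macrophages. Trim14, which lacks a RING finger and binds the adaptor MAVS, had 13.3 and 14.1 CPM in CD8 T cells, and Trim65, which acts on the RNA sensor MDA5, had 11.3 and 7.39 CPM in macrophages. Trim38 had no UMI in any gated cell.

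Genes around RIG-I were read beside Trim25 from a list of 10, of which 9 were in the file. In classical monocytes 3 of 9 were at least 2 times as high as in other gated cells in both libraries, beside 9.99% of genes by that rule: Ifih1, the RNA sensor MDA5, with 172 CPM in library 2 and 193 CPM in library 1, its relative Dhx58 with 103 and 102 CPM, and the transcription factor Irf7 with 923 and 1126 CPM. In NK cells the same 3 genes were at most 0.5 times as high, beside 15.9% of genes. Ddx58, the gene of RIG-I itself, had 127 and 134 CPM in classical monocytes and 87.3 and 76.1 CPM in CD8 T cells, which did not reach 2 times against other gated cells. Of 11 genes of interferon signalling, 3 were at least 2 times as high in classical monocytes and 2 were at most 0.5 times as high in NK cells, Stat2 among them, with 164 and 164 CPM in classical monocytes and 25.8 and 31.6 CPM in NK cells.

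B cells and migratory dendritic cells shared Trim7 and Trim35. B cells had 3 members called higher, beside 3.26% of genes, and migratory dendritic cells had 3, beside 6.4%. Trim7 (chromosome 11, 48826140 to 48852209, plus strand), whose protein binds the glycogen-priming enzyme glycogenin, had 113 CPM (69.2 to 175) in library 2 and 131 CPM (98.6 to 169) in library 1 in B cells, against 1.94 and 1.55 CPM in other gated cells. It rested on 20 and 56 UMIs. In migratory dendritic cells it had 67.0 CPM (49.0 to 89.4) and 27.2 CPM (16.9 to 41.6), against 1.35 and 2.15 CPM in other gated cells. Trim7 UMIs were found in 28.8% and 34.3% of B cells, at median depths of 3202 and 3255 UMIs, and in 43.1% and 20.0% of migratory dendritic cells. In CD8 T cells, at medians of 7086 and 7909.5 UMIs, the shares were 0.311% and 0.903%. After thinning, the B cell shares were 38.7% of 31 cells and 31.6% of 76 cells, those of migratory dendritic cells 19.6% and 7.41%, and those of CD8 T cells 0.0527% and 0.139%. Neutrophils and mast cells had no Trim7 UMI in either library. A count of 0 of 138 and of 0 of 80 neutrophils allows shares of cells with a UMI of up to 2.17% and 3.75% (3 counts of the total), and the exact intervals reach 2.64% and 4.51%.

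Trim35, which binds the glycolytic enzyme pyruvate kinase M2, had 163 CPM (134 to 196) in library 2 and 162 CPM (135 to 193) in library 1 in migratory dendritic cells, against 38.3 and 41.6 CPM in other gated cells. In B cells it had 125 and 119 CPM, against 40.0 and 42.6 CPM. In cDC1, of which there were 14 and 41 cells, too few to compare, Trim35 had 172 and 274 CPM. Among migratory dendritic cells 78.4% and 85.5% held a Trim35 UMI, and among NK cells 19.6% and 18.9%. Trim6, a chromosome 7 copy, had 8.74 and 11.7 CPM in migratory dendritic cells, against 0.851 and 1.01 CPM in other gated cells, on 6 and 9 UMIs.

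Macrophages stood apart by Trim47. They had 2 members called higher, beside 8.97% of genes. Trim47 (chromosome 11, 116105752 to 116127210, minus strand) had 17.0 CPM (13.4 to 21.2) in library 2 and 17.7 CPM (15 to 20.9) in library 1 in macrophages, against 1.07 and 0.748 CPM in other gated cells, with log2 ratios of 3.98 and 4.55. Its UMIs were found in 16.5% and 19.3% of macrophages, against 0.0996% and 0.553% of NK cells. Its exons overlap those of Trim65 on the same strand, and it shared 2.44% of the 50-base words near its end with Trim65. Mast cells also held some, at 8.65 and 11.5 CPM, and classical monocytes 3.72 and 2.36 CPM. Trim3, a member with NHL repeats known from the brain, had 8.05 and 10.1 CPM in macrophages, against 2.68 and 3.20 CPM in other gated cells, and 6.84 and 7.63 CPM in classical monocytes. Trim16, which lacks a RING finger and takes part in the response to damaged lysosomes, had 10.4 and 8.05 CPM in classical monocytes, against 1.82 and 1.87 CPM in other gated cells, and it also met the rule in non-classical monocytes and cDC2. It shared 10.8% of the 50-base words near its end with the overlapping gene Fbxw10.

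**Figure D3:**
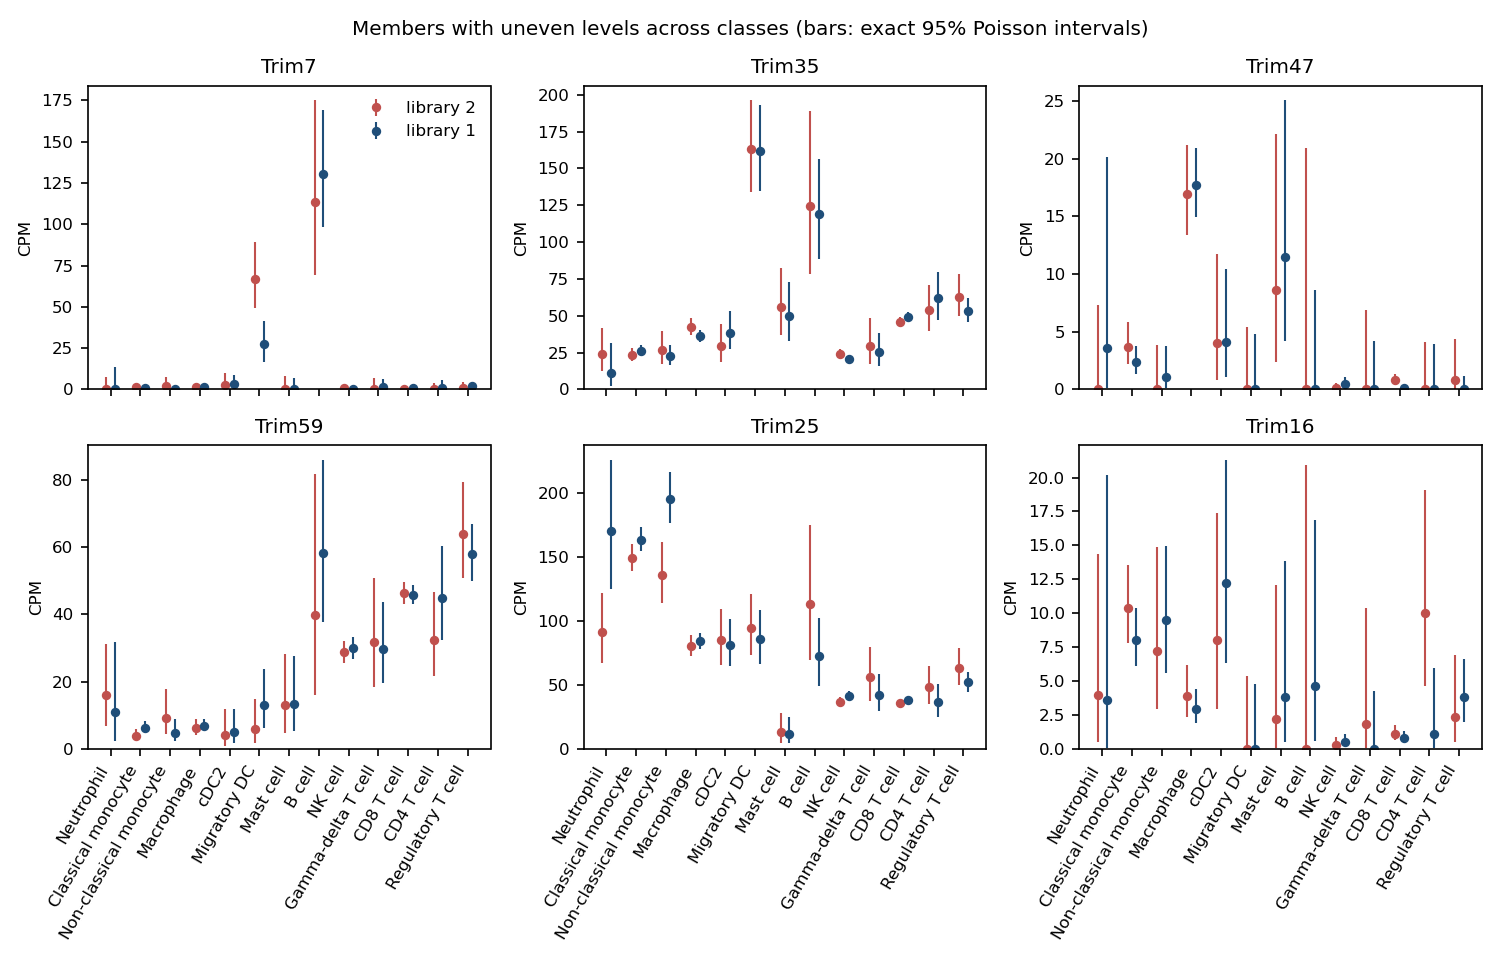
CPM of Trim7, Trim35, Trim47, Trim59, Trim25 and Trim16 in 13 gated classes, library 2 left of library 1 in each pair, with exact 95% Poisson intervals as bars. Trim7 is highest in B cells and migratory dendritic cells and Trim47 in macrophages in both libraries. Trim59 is high in regulatory T cells and CD8 T cells, with B cells at 39.7 and 58.3 CPM, and Trim16 has 8.0 and 12.2 CPM in cDC2 beside 10.4 and 8.05 CPM in classical monocytes.

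The membrane-anchored member Trim59 was called higher in 2 T cell classes. In regulatory T cells Trim59 had 63.8 CPM in library 2 and 57.9 CPM in library 1, against 28.6 and 28.4 CPM in other gated cells, and in CD8 T cells 46.2 and 45.9 CPM, against 19.4 and 20.8 CPM. B cells had 39.7 and 58.3 CPM, on 7 and 25 UMIs, and did not reach 2 times in either library. Trim59 was the only member called higher in the 2 T cell classes, beside 4.04% of genes in regulatory T cells and 6.23% in CD8 T cells. It was low in myeloid cells, with 3.72 and 6.24 CPM in classical monocytes, 6.09 and 6.90 CPM in macrophages and 4.0 and 5.08 CPM in cDC2. Trim13, the other membrane-anchored member, which sits in the endoplasmic reticulum, had 8.79 and 7.99 CPM in NK cells and 0.978 and 2.64 CPM in classical monocytes. NK cells had 2 members called higher, beside 4.08% of genes, both at low counts. Trim46, known from microtubules of the axon, had 5.49 and 3.70 CPM, against 1.67 and 1.47 CPM in other gated cells. Trim62, which modifies the adaptor CARD9, had 3.39 and 4.04 CPM, against 1.64 and 1.57 CPM. NK cells were the highest class for neither. Trim46 was highest in B cells of library 2 (5.67 CPM) and CD4 T cells of library 1 (5.33 CPM). Trim62 was highest in CD4 T cells of library 2 (4.47 CPM) and B cells of library 1 (4.66 CPM). Both classes had fewer cells than NK cells.

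The chromatin members of the TIF1 group carry a bromodomain. Trim28, the corepressor of KRAB zinc-finger proteins, had 42.6 CPM in library 2 and 39.5 CPM in library 1 in CD8 T cells and 47.2 and 44.7 CPM in NK cells. In classical monocytes it had 20.7 and 25 CPM, and in neutrophils 11.9 and 7.24 CPM on 6 and 2 UMIs. Trim33, a regulator of Smad4, had 44.1 and 39.3 CPM in CD8 T cells and 34.6 and 32.7 CPM in classical monocytes. Trim24, a coregulator of nuclear receptors, was also uneven across classes. It had 9.39 and 7.49 CPM in classical monocytes, against 30.3 and 28.2 CPM in other gated cells, and 9.57 and 10.2 CPM in macrophages, against 30.0 and 28.2 CPM, while CD8 T cells had 40.7 and 37.3 CPM and NK cells 26.55 and 23.6 CPM. Trim66 had at most 5 UMIs. Of 11 partners of the group, 2 were at least 2 times as high in classical monocytes, beside 9.99% of genes, the myeloid factor Spi1 with 739 and 821 CPM and the retinoic acid receptor Rara with 142 and 118 CPM. A further 3 were at most 0.5 times as high, beside 22.3% of genes, namely Cbx3, Cbx5 and Zfp809. Cbx5, a heterochromatin protein, had 10.2 and 10.4 CPM in classical monocytes and 51.4 and 60.6 CPM in CD8 T cells. Setdb1, the histone methyltransferase that Trim28 recruits, had 14.1 and 14.7 CPM in classical monocytes and 14.4 and 15.5 CPM in CD8 T cells.

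Among the remaining members, Trim27 had 54.0 and 51.2 CPM in CD8 T cells, Trim44, which lacks a RING finger, 53.7 and 52.5 CPM, Trim8 25.9 and 21.3 CPM and Trim11 15.3 and 13.6 CPM. Trim44 was lower in neutrophils, with 7.94 and 14.5 CPM on 4 UMIs in each library. The 19 members without a UMI in gated cells included Trim63, Trim54 and Trim72, which are known from muscle, Trim9 from nerve, and Trim10 and Trim58 from the red cell lineage. Trim71, known from stem cells, and Trim67, known from nerve, had at most 5 UMIs each. The family also has members with other symbols. Mefv, the gene of pyrin, had 125 CPM in library 2 and 124 CPM in library 1 in classical monocytes, 125 and 112 CPM in neutrophils and 0.546 and 1.14 CPM in CD8 T cells. Pml, which builds nuclear bodies, had 50.6 and 46.3 CPM in CD8 T cells. Mid1, which binds microtubules, had 16.6 and 3.73 CPM in CD8 T cells, 13.2 and 1.94 CPM in NK cells and 32.2 and 11.2 CPM in macrophages, higher in library 2 in each of these classes.

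Cells of the same class that were rich in interferon-stimulated transcripts held more of the antiviral members. Within a class and library, cells thinned to 3000 UMIs were ranked by the summed UMIs of 15 interferon-stimulated genes such as Isg15, Ifit3 and Rsad2, a list without Trim genes, and the upper 25% of cells (rich cells) were set against the lower 25% (poor cells), with ties kept. Members and genes were compared where rich and poor cells of both libraries together held at least 50 UMIs after thinning. A member high in rich cells could thus enter through them. In macrophages Trim30c had 25 and 40 UMIs in rich cells of library 2 and library 1, and 4 and 2 in poor cells. The counts below depend on this filter. A member was counted where rich cells had more than 1.5 times the CPM of poor cells in both libraries, whatever its intervals. This held for 11 of 26 members in CD8 T cells, beside 4.75% of all genes, for 8 of 20 in NK cells, beside 4.23%, for 10 of 15 in classical monocytes, beside 10.2%, and for 8 of 10 in macrophages, beside 9.76%. More than 1.5 times lower was 1 member in classical monocytes, Trim27, beside 15.6% of genes. Its intervals, -2.06 to 0.60 in library 2 and -2.07 to 0.12 in library 1, spanned 0. None was lower in CD8 T cells, beside 4.9%, in NK cells, beside 2.74%, or in macrophages, beside 6.79%. Over the 4 classes 27 members were compared and 12 were higher in at least 1 class. All 12 belong to the interferon and antiviral list, of which 14 members were compared, and none of the other 13 members was counted. That list was drawn up with earlier results of these cells known, and its members are known interferon targets, so the count is not independent evidence of its direction.

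Trim12a, Trim12c, Trim25, Trim30a and Trim30d were higher in all 4 classes. In CD8 T cells Trim30a had 519.8 CPM in rich and 85.8 CPM in poor cells of library 2, and 516 and 80.2 CPM in library 1, with log2 ratios of 2.59 (2.33 to 2.88) and 2.68 (2.43 to 2.95). Trim30d had 137 and 16.4 CPM in library 2 and 131 and 27.5 CPM in library 1. Trim30c was near 0 in poor cells, with 59.6 and 1.31 CPM in library 2 and 59.4 and 2.20 CPM in library 1, on 86 and 2 UMIs and on 98 and 4 UMIs. The log2 ratios were 5.19 (3.61 to 8.58) and 4.59 (3.35 to 6.66). Trim25 had 76.9 and 19.0 CPM in library 2 and 74.5 and 18.7 CPM in library 1, and Trim34a 76.9 and 17.7 CPM and 78.8 and 23.6 CPM. Trim12a had a smaller difference, with log2 ratios of 1.15 and 1.05. Trim5, which shares the promoter stretch with Trim12c, was not among the members counted. It had 20.8 and 38.6 CPM in library 2 and 27.3 and 35.7 CPM in library 1, with log2 ratios of -0.88 (-1.58 to -0.24) and -0.38 (-0.97 to 0.18), while Trim12c had 243 and 74.7 CPM and 198 and 53.8 CPM.

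Trim30b was compared in the myeloid classes and not in CD8 T cells or NK cells. In classical monocytes Trim30b had 109 CPM in rich and 13.4 CPM in poor cells of library 2, and 133 and 26.0 CPM in library 1, with log2 ratios of 2.92 and 2.32. In macrophages it had 70.9 and 7.02 CPM in library 2 and 104 and 10.9 CPM in library 1, with log2 ratios of 3.05 (1.30 to 6.48) and 3.13 (1.93 to 4.94). Trim30c had 183 and 17.9 CPM and 179 and 13.8 CPM in classical monocytes. The Trim25 difference was smaller there, with log2 ratios of 0.79 and 0.81 against 2.00 and 1.98 in CD8 T cells. The difference between these classes was not tested. The TIF1 members were not counted in CD8 T cells. Trim28 had 36.7 and 47.2 CPM in library 2 and 28.5 and 42.8 CPM in library 1, with log2 ratios of -0.36 (-0.90 to 0.17) and -0.58 (-1.14 to -0.05), and Trim24 40.2 and 36.0 CPM and 43.0 and 37.3 CPM. In CD8 T cells the median log2 ratio of the members compared was 0.57 in library 2 and 0.36 in library 1. Over all genes compared there it was -0.12 and -0.08. In macrophages it was 1.30 and 1.64 for members, beside -0.11 and -0.04 over all genes compared. These medians also depend on the minimum of 50 UMIs over rich and poor cells.

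**Figure D4:**
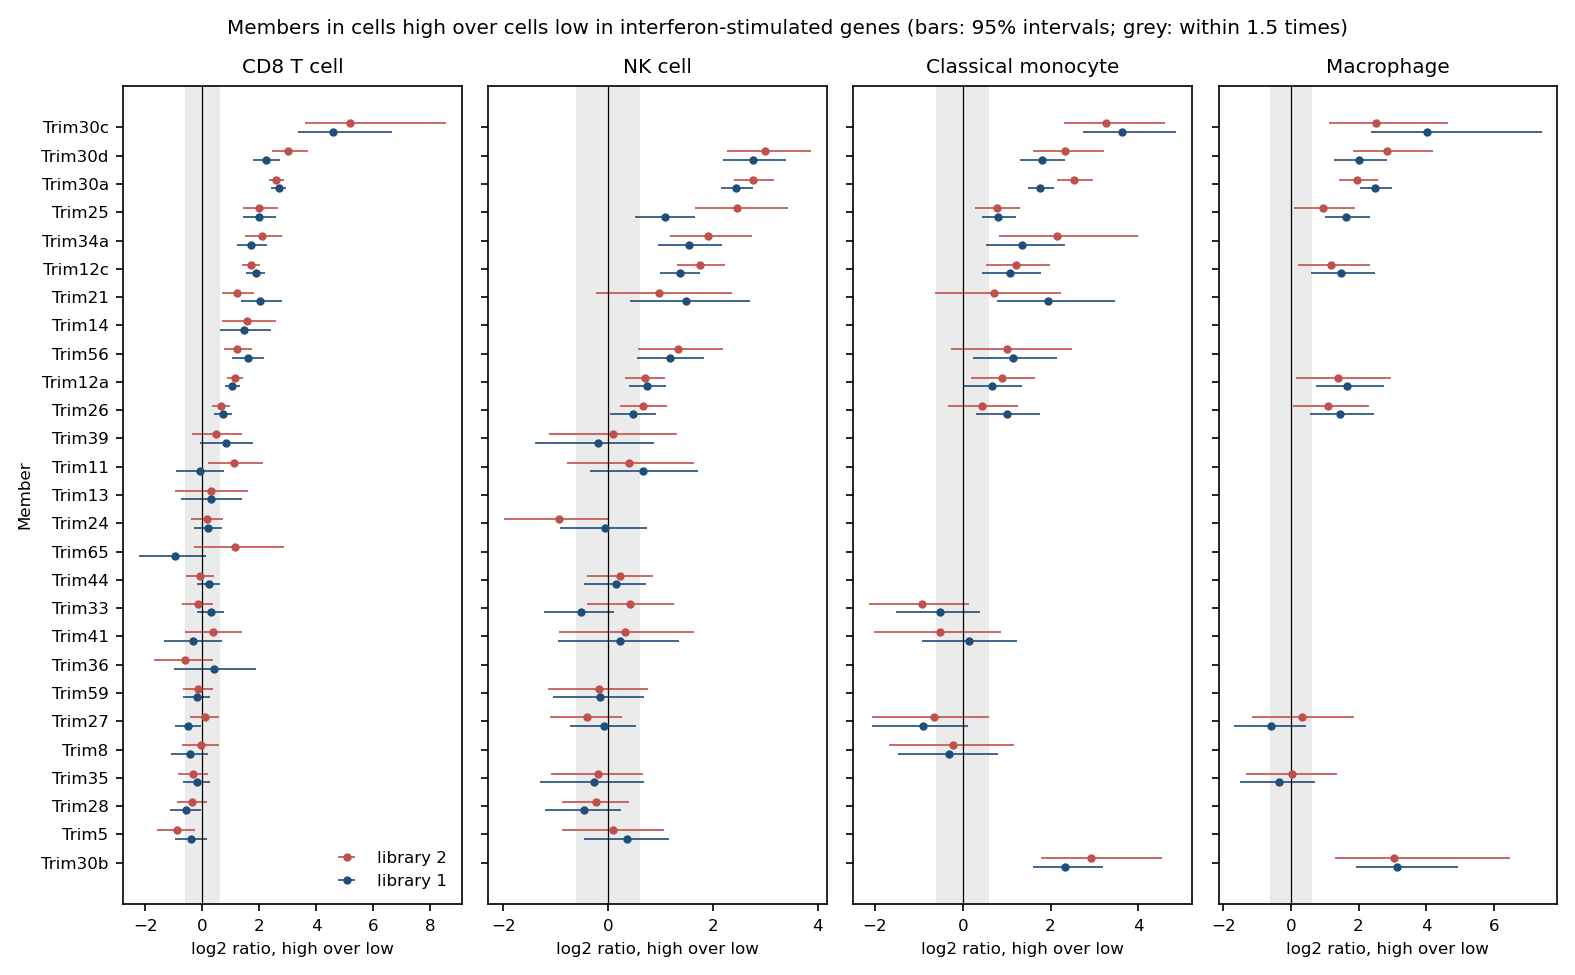
Log2 ratio of CPM in cells rich over cells poor in interferon-stimulated transcripts, for each member compared, in CD8 T cells, NK cells, classical monocytes and macrophages. Points are libraries, bars are exact 95% intervals and the grey band marks ratios within 1.5 times. Trim30a, Trim30c and Trim30d lie above the band wherever they were compared, Trim28 lies between -0.58 and -0.22, Trim44 between -0.07 and 0.22, and Trim24 between -0.93 and 0.20.

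Rich and poor cells are ranges of a score and not cell types. In CD8 T cells 25 cells of library 2 and 43 of library 1 lay exactly at the upper limit, and 213 and 257 at the lower one. Cycling cells made up 6.24% of rich and 16.5% of poor CD8 T cells in library 2, and 11.8% and 27.2% in library 1. Without cycling cells the counts of members were again 11, 8, 10 and 8. Of the 12 members that were higher, 11 had a RefSeq promoter window and 4 of those held GAAANNGAAA (Trim12c, Trim26, Trim30a and Trim30d). The matches of Trim30a and Trim30d lie in their shared run of 118 bases, so these are not separate finds. A window without a match also depends on where the RefSeq start lies, as for Trim12a. Among 20 further detected members with such a window it was found for 1, Trim5, beside the 3.46% of all genes. Trim30c held no match in its window, and the window of Trim30b is the one inside its gene.

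Cycling cells, taken as those with at least 3 UMIs of Mki67, Top2a and Birc5, were compared in CD8 T cells, NK cells and macrophages. They held more Trim28 than other cells of the same class in each, and more Trim37 in CD8 T cells and NK cells. In cycling macrophages Trim37 rested on 7 and 15 UMIs, with intervals that spanned 0 (-0.20 to 2.51 and -0.05 to 1.77). Members were counted by the ratios alone. In CD8 T cells 2 of 34 members were more than 1.5 times higher in both libraries, beside 9.59% of all genes. Trim28 had 63.4 CPM in cycling and 36.4 CPM in other cells of library 2, and 54.4 and 31.8 CPM in library 1. Trim37, which limits the number of centrosomes, had 16 and 5.53 CPM in library 2 and 14.3 and 5.19 CPM in library 1. More than 1.5 times lower were 7 members, beside 7.26% of genes, 6 of them antiviral members. Trim30c, for example, had 5.79 and 15.2 CPM in library 2 and 2.65 and 15.8 CPM in library 1. In NK cells 4 of 32 members were higher, beside 8.49% of genes, and Trim59 was among them, with 47.0 and 24.7 CPM in library 2 and 61.4 and 23.4 CPM in library 1. There 3 members were lower, Trim13, Trim34a and Trim46, beside 4.06% of genes. The intervals of Trim13 (-2.09 to 0.09 and -1.91 to 0.15) spanned 0 in library 2 and library 1. So did those of Trim46 (-2.78 to 0.22 and -3.82 to 0.16). Of the higher members, Trim32 also had intervals that spanned 0 (-1.05 to 1.94 and -0.99 to 2.01). In macrophages 5 of 29 were higher, beside 9.53% of genes, on low counts, and Trim59 had 24.0 and 3.90 CPM in library 2 and 20.3 and 4.50 CPM in library 1. The 3 lower members, beside 5.04% of genes, were Trim30b, Trim30c and Trim30d. In library 2 the intervals of Trim30b (-2.17 to 0.28) and Trim30c (-2.14 to 0.13) spanned 0. Trim59, low in macrophages as a class, was thus higher in the few that cycled, 29 cells of library 2 and 59 of library 1. Cycling cells were also deeper, with medians of 15142 and 6795 UMIs in CD8 T cells of library 2 and 16994.5 and 7173.5 UMIs in library 1. The share of members higher in cycling cells lay below the background in CD8 T cells and above it in NK cells and macrophages, there on few UMIs. With cells thinned to 3000 UMIs the counts were 2 in CD8 T cells, 2 in NK cells and 1 in macrophages.

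Between the libraries most members differed little within a class. Over members and classes with at least 50 UMIs, 21 of 230 pairs differed by more than 1.5 times, beside 8.98% of all gene and class pairs, and 17 did so with an interval clear of 0, beside 6.75%. None of 34 members did so in CD8 T cells, beside 7.39% of genes, none of 32 in NK cells, beside 5.57%, none of 20 in regulatory T cells, beside 10.1%, and none of 18 in non-classical monocytes, beside 7.83%. The median log2 ratio of library 2 over library 1 was 0.11 for members and 0.03 for all genes in CD8 T cells, and 0.03 and 0.04 in NK cells. No genotype is known for either library.

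Most of the differences lay in classes with fewer cells. In cDC2, 4 of 12 members were lower in library 2 and none was higher, beside 11.3% of genes past 1.5 times either way, and all 4 belong to the Trim30 group. Trim30a had 183 CPM in library 2 and 299.8 CPM in library 1, a log2 ratio of -0.71 (-1.02 to -0.42), and Trim30d 40.0 and 92.5 CPM, a log2 ratio of -1.19 (-1.86 to -0.60). Trim30b had 34.7 and 56.9 CPM and Trim30c 22.7 and 50.8 CPM. In neutrophils 4 of 9 were lower, beside 20.7% past 1.5 times either way: Trim25 with 91.3 and 170.1 CPM, Trim26 with 77.4 and 130.3 CPM, Trim12c with 125 and 195 CPM and Trim30c with 67.5 and 101 CPM. In mast cells Trim30a had 62.7 and 117 CPM, 1 of 2 members past 1.5 times, beside 13.2% of genes. In these classes the 15 interferon-stimulated genes also had a lower summed CPM in library 2. The list summed to 3994 CPM in library 2 and 6968 CPM in library 1 in cDC2, with 11 of 15 genes more than 1.5 times lower and a median log2 ratio of -0.78. It summed to 9384 and 13360 CPM in neutrophils, with 6 of 15 lower and 1 higher, and to 1894 and 2770 CPM in mast cells, with 6 of 10 lower. In CD8 T cells, where no member passed 1.5 times, it summed to 3377 and 2781 CPM, with none lower and 1 higher. The part of this list in the member differences was not tested.

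In migratory dendritic cells 6 of 11 members differed by more than 1.5 times, beside 15.3% of genes, in both directions. Trim7 had 67.0 CPM in library 2 and 27.2 CPM in library 1, a log2 ratio of 1.28 (0.52 to 2.12), Trim33 56.8 and 32.4 CPM, and Trim27 81.6 and 49.3 CPM. Trim30a had 71.4 and 162 CPM, a log2 ratio of -1.17 (-1.69 to -0.70), Trim24 36.4 and 63.5 CPM, and Trim30d 51.0 and 77.8 CPM. The 15 interferon-stimulated genes summed to 1968 and 4190 CPM there, with 9 of 14 lower in library 2. The class had 51 cells in library 2 and 55 in library 1. Smaller counts made up the rest: 2 of 15 members in CD4 T cells, beside 9.16% of genes, with Trim27 at 34.6 and 65.0 CPM and Trim30d at 43.6 and 72.4 CPM, 1 of 13 in gamma-delta T cells, beside 10% of genes, 1 of 29 in macrophages, beside 8.23%, 1 of 28 in classical monocytes, beside 6.31%, and 1 of 7 in B cells, beside 15.8%. Trim30c had 24.2 and 49.3 CPM in gamma-delta T cells, and the macrophage and classical monocyte values of Trim65 and Trim59 are those given above. In B cells Trim25 had 113 and 72.2 CPM, a log2 ratio of 0.66 with an interval of -0.24 to 1.51. At counts of this size a 1.5-fold difference lies within the interval. With cells thinned to 3000 UMIs, 16 of the 21 differences could be computed: 2 were past 1.5 times on at least 50 UMIs (Trim30a in cDC2 and Trim30d in CD4 T cells), 10 were past it on fewer UMIs, and 4 were within it. Those 4 were Trim30b in cDC2 (log2 ratio -0.32) and Trim33 (0.26), Trim24 (-0.35) and Trim30d (-0.15) in migratory dendritic cells.

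**Figure D5:**
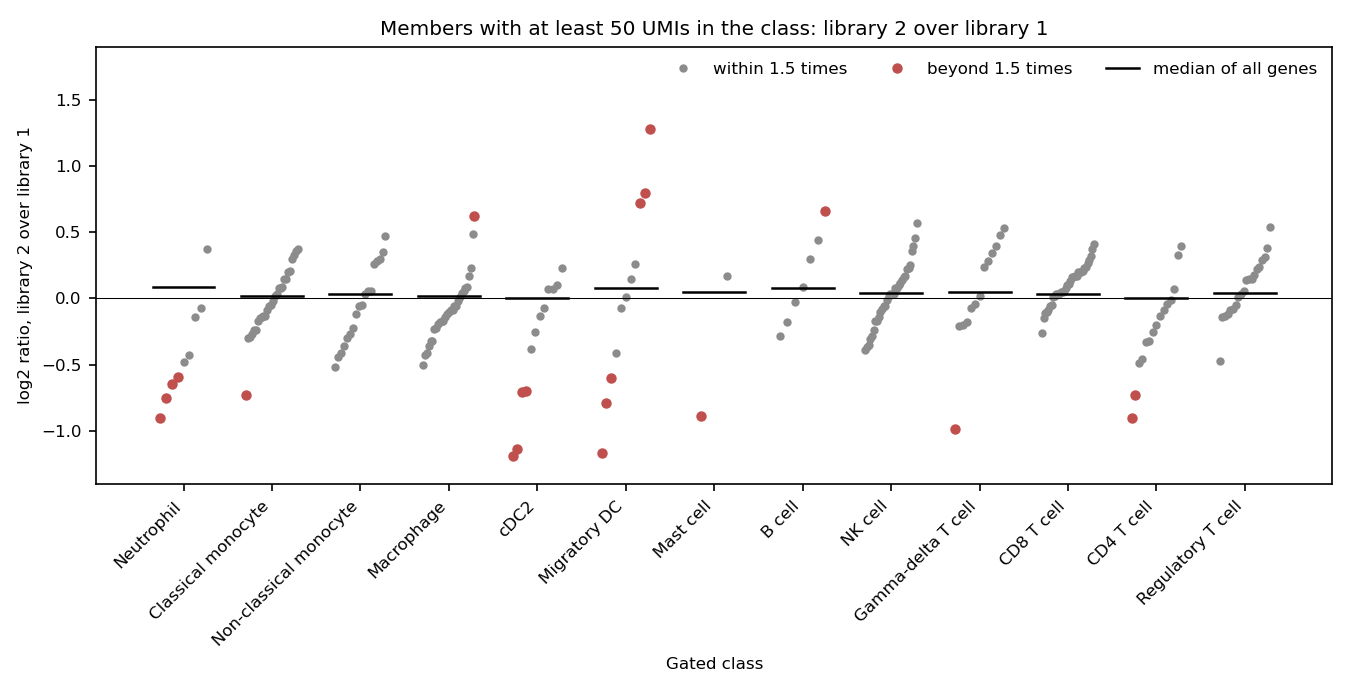
Log2 ratio of CPM in library 2 over library 1 for each member with at least 50 UMIs in a class, by class. Red points lie beyond 1.5 times and the black line is the median over all genes of that class. No point is red in CD8 T cells, NK cells, regulatory T cells or non-classical monocytes, and the red points of cDC2, neutrophils and mast cells lie below 0.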

How the data were processed

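The values are UMI counts per gene and cell barcode, deposited by the authors as whole numbers without normalization. Cell Ranger 6.1.2 and mm10 are named per the file headers and in the submitters' processing notes. Neither the gene annotation nor any subsampling of reads between the libraries is given in the sources used here. The kit reads 3′ ends, per the labels' protocols.

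Kept were 6113 barcodes of library 2 and 8066 of library 1, after a minimum of 500 genes and a maximum of 10% mitochondrial UMIs. Cells entered a class by summed UMIs of its marker genes (for CD8 T cells at least 3 of the Cd3 genes and 3 of Cd8a and Cd8b1) and by limits on markers of other lineages. No doublet caller was run, but barcodes with at least 3 T cell and 5 myeloid UMIs entered no class (396 in library 2 and 562 in library 1), and a further 949 and 1470 cells met no gate. The 2 classes with fewer than 50 cells in a library, pDC and cDC1, were not compared.

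Per class and library, UMIs were added up and scaled to CPM, and log2 ratios used a pseudocount of 0.5 UMI. Single values were given for members at 2 times or more in a class in both libraries, for members past 1.5 times between libraries and for the highest member of each role group; other members named for a role are described beside them, and partner genes came from lists. Sums have Poisson, shares Clopper-Pearson and ratios conditional binomial intervals. With 1 sample per genotype there is no test and no p-value, since cells are not replicates. The ratio and class calculations were first tried on simulated data. Members and lists were chosen with earlier results of these data known. Gene IDs were matched to GENCODE M21 (54349 of 55401, and 68 of the 69 members). Python 3.11.15, numpy 2.4.6, scipy 1.17.1, pandas 2.3.3 and matplotlib 3.10.9 were used.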

Additional observations from a re-analysis of the deposited data

How the results depend on the processing

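The family level was 1214 CPM in library 2 and 1206 CPM in library 1. It was 1194 and 1187 CPM with gate minima doubled, 1295 and 1291 CPM with cells thinned to 3000 UMIs, 1542 and 1560 CPM with ribosomal protein and mitochondrial genes left out of the totals, and 1243 and 1250 CPM without cycling cells. Without a filter on cells it was 1215 and 1207 CPM. The 21 members at 2 times or more in a class became 8 at 3 times. The 21 member and class pairs past 1.5 times between libraries, of 230 compared, became 13 of 180 with gate minima doubled, where B cells, migratory dendritic cells and cDC2 had too few cells. They became 9 of 128 with thinned cells, where neutrophils and B cells had too few. Of 16 of the 21 pairs with a value there, 2 met the rule, 10 were past 1.5 times on fewer than 50 UMIs, and 4 were within it. The pairs became 57 of 325 with a minimum of 20 UMIs, and 4 at 2 times. A filter of 1000 genes and 5% mitochondrial UMIs also took neutrophils and B cells below 50 cells, so the neutrophil and B cell values have no value there. Of 1174 alternative values for single members against other gated cells, 1054 still met the rule of their setting and 120 did not. At the higher fold of 3, 66 of these 120 did not. Of 168 values between libraries 128 met the rule and 40 did not, 14 of them with thinned cells and 17 at the higher fold of 2. None turned its direction. Settings of the interferon and cycling comparisons were chosen after seeing the data. Members higher in cycling NK cells were 2 with thinned cells, against 4. In cycling macrophages they were 3 with a gate of 6 UMIs and 1 with thinned cells, against 5. In cells rich in interferon-stimulated transcripts the count was 11 in CD8 T cells and 8 in macrophages under each of 3 alternatives, 8 or 9 in NK cells and 8 to 10 in classical monocytes. The causes were not tested. No paired analysis was possible because each genotype had 1 sample and no label ties a barcode ending to a genotype. Depth limits the classes with fewest cells: members with fewer than 50 UMIs in a class were not compared between libraries.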
